A study of Zea mays with 6 samples.

Results

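A group of 75 genes was almost silent in wild-type maize endosperm and clearly expressed in *zmnac128 zmnac130* endosperm at 16 DAP (days after pollination). The members were chosen on the deposited expression values themselves, out of 44303 genes. Both wild-type libraries had to lie below 1 FPKM (fragments counted per gene, scaled for gene length and library depth) with at least 1 of them above 0, both mutant libraries at 5 FPKM or more, and the mutant mean below 50 FPKM. The transporter genes *ZmMATE11* and *ZmNRAMP5*, which pass the same limits, were left out by name. Because the rule used these 4 libraries, the levels and changes of the members are given as a description, with no test.

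The mutant carries knockouts of the duplicate genes *ZmNAC128* and *ZmNAC130*, first made in the inbred KN5585 and then crossed to the inbred B73. Mutant and wild-type endosperms were genotyped on self-pollinated cobs of that cross, so both groups segregate for KN5585 and B73 alleles away from these genes. Near them, the mutant carries KN5585 alleles and the wild type B73 alleles. Effects of such linked alleles cannot be told apart from those of the knockouts. The study states only that RNA came from more than 3 endosperms, so the mix of alleles elsewhere can also differ between the groups. Effects of such differences cannot be told apart from those of the knockouts either. Reads of both parents were aligned to the B73 genome. Each library held RNA of pooled endosperms, in which fewer cells of a type and less RNA per cell cannot be told apart. The labels give 3 samples per genotype, of which replicate 3 held the values of replicate 1 in all 44303 genes of both genotypes. Each such pair was counted as 1 sample, which left 2 libraries per genotype. The study calls its samples independent without saying what separates them, so the p-values measure the spread between these libraries.

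The endosperm fills the maize kernel with starch and protein. NAC proteins are a plant family of DNA-binding regulators, and ZmNAC128 and ZmNAC130 are known as activators of storage genes in the filling endosperm. When such a regulator is lost, RNA levels alone do not tell its direct targets from genes further downstream.

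The depth of each library, estimated from the steps between FPKM values, was between 26317317 and 30696032 reads. Reads recovered in genes summed to between 25942584 and 30224959. Cell type markers could be matched only among the hdEGs, the highly and differentially expressed genes that the study selected, partly on the same samples. The direction of each marker was thus fixed by that selection, and the values below are a description. The 7 genes matched as zeins, the prolamins of the starchy endosperm, are downregulated hdEGs and summed to 57564 and 56629 FPKM in the wild type and to 20579 and 15173 FPKM in the mutant. Zeins were thus abundant in all 4 libraries. The 1 transfer layer gene matched, described as a basal endosperm transfer layer 3 precursor and also a downregulated hdEG, had 135 and 162 FPKM in the wild type and 44.4 and 29.5 FPKM in the mutant. A search for photosynthesis words matched 2 upregulated hdEGs, a photosystem II protein and a RuBisCO-binding chaperonin subunit, which summed to 13.3 and 13.6 FPKM in the wild type and to 51.4 and 56.4 FPKM in the mutant. No ID could be matched to aleurone, embryo or embryo surrounding region markers. The part of a shifted cell makeup in the levels of the 75 genes was not tested.

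The 75 genes are a small share of the weakly transcribed part of the genome. In 11649 genes both wild-type libraries lay below 1 FPKM with at least 1 read in 1 of them. In 10529 of these (90.4%) both mutant libraries also stayed below 1 FPKM, and in 1042 (8.94%) the mutant values lay in between. Both mutant libraries reached 5 FPKM in 78 genes (0.670%), which are the 75 members, the 2 genes left out by name and 1 gene above the ceiling, Zm00001eb421480, with 248 and 316 FPKM in the mutant. With the genotypes exchanged, 89 genes met the same limits out of 11846 near-silent in the mutant. Near silence in one genotype and expression in the other was thus met in both directions.

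Most members reached a modest level in *zmnac128 zmnac130*. The mutant mean was below 10 FPKM in 50 members, from 10 to below 20 FPKM in 15 and 20 FPKM or more in 10. The median of the mutant means was 8.61 FPKM and the highest 34.5 FPKM. The rule allowed means up to 50 FPKM, but 0 members lay at 40 FPKM or above. *ZmMATE11*, left out by name, had a mutant mean of 44.2 FPKM and would have lain there. In the wild type the median of the means was 0.202 FPKM. Replicate 1 of the wild type listed 11 members at 0 and replicate 2 another 10, and 54 members had reads in both.

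**Figure D1:**
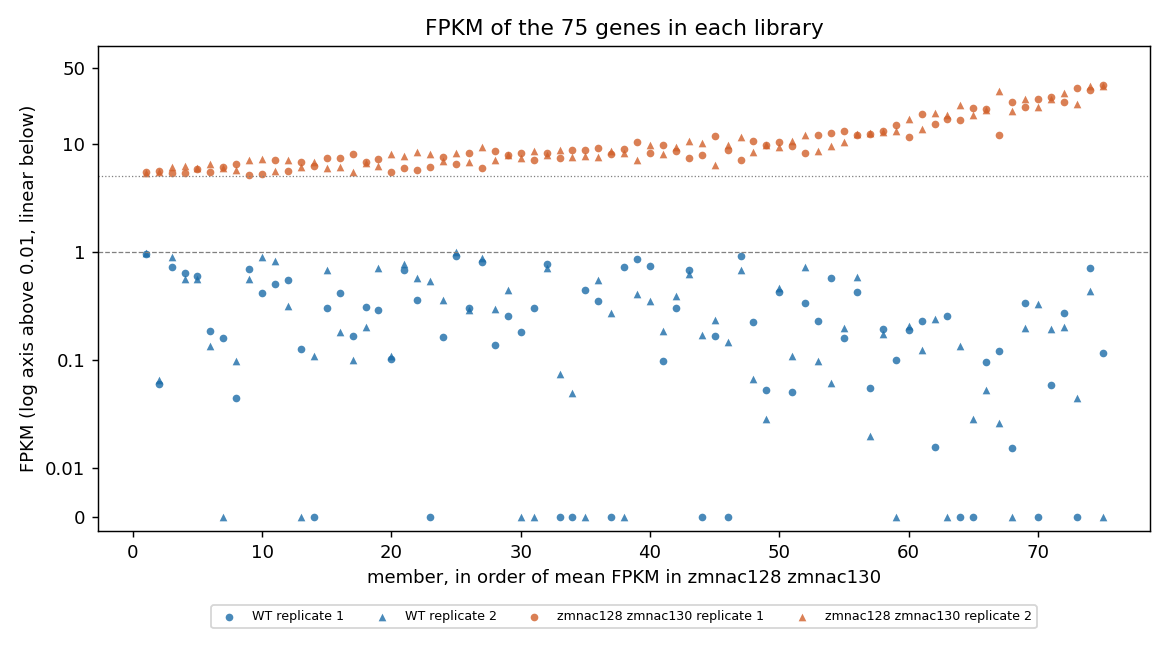
FPKM of each of the 75 genes in the 4 libraries (circles replicate 1, triangles replicate 2; blue wild type, orange *zmnac128 zmnac130*), on a log axis above 0.01 FPKM and a linear one below. Genes are ordered by their mutant mean, which runs from 5.45 to 34.5 FPKM, and the dashed and dotted lines mark the limits of 1 and 5 FPKM that chose the genes.

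The gene with the highest level, Zm00001eb058540, lies on chromosome 1 by its ID number. Wild-type replicates 1 and 2 gave 0.117 and 0 FPKM, and mutant replicates 1 and 2 gave 34.6 and 34.4 FPKM, in the order kept for every gene here. Its mutant libraries were nearly equal. Zm00001eb349960 had 0.710 and 0.439 FPKM in the wild type and 31.2 and 34.3 FPKM in the mutant. It thus started higher than Zm00001eb058540 and reached nearly the same level. Zm00001eb169320 had 0 and 0.0447 FPKM against 33.0 and 23.5 FPKM, with the mutant libraries 1.41-fold apart.

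A further 7 members had mutant means from 20.8 to 26.6 FPKM. Zm00001eb022150 had 0.272 and 0.204 FPKM in the wild type and 24.1 and 29.1 FPKM in the mutant. Zm00001eb354110 had 0.0594 and 0.193 FPKM against 26.96 and 25.7 FPKM. Zm00001eb257470, a short gene of 228 bases, had 0 and 0.333 FPKM against 26.1 and 21.995 FPKM. In all of these, both mutant libraries lay far above both wild-type libraries, as the rule requires.

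Zm00001eb370730 had 0.335 and 0.198 FPKM in the wild type and 21.8 and 26.02 FPKM in the mutant. Zm00001eb031890 had 0.0156 and 0 FPKM against 24.3 and 19.998 FPKM. Zm00001eb018880 had 0.0971 and 0.0526 FPKM against 21.1 and 20.5 FPKM. Of these, Zm00001eb018880 had the closest mutant libraries. The last of the 10 highest, Zm00001eb427650, had 0.122 and 0.0264 FPKM in the wild type and 12.1 and 30.6 FPKM in the mutant, and its mean of 21.4 FPKM rests on replicate 2.

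The size of the change spread over more than 2 orders of magnitude. The ratio of mutant to wild-type mean FPKM had a median of 52.3 and ran from 5.66 to 2846. It was below 10 in 9 members, from 10 to below 100 in 44 and 100 or more in 22. The 5 largest ratios were those of Zm00001eb031890 (2846), Zm00001eb410280 (1400), Zm00001eb169320 (1265), Zm00001eb058540 (588) and Zm00001eb370920 (329). These ratios divide by very few wild-type reads. By reads recovered from the FPKM steps, the members had a median of 11 wild-type reads over both libraries, against 641 mutant reads.

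In 16 members the wild type held only 1 to 3 reads in all, and in 6 of those a single read. For Zm00001eb031890, with 1 wild-type read against 1682 and 1323 reads in the mutant libraries, the depth-adjusted ratio of reads was 2744 with an exact 95% interval from 492 to 108417. For Zm00001eb410280, with 21.3 and 18.4 FPKM in the mutant, the ratio was 1460 with an interval from 262 to 57707. For Zm00001eb169320 it was 1322, with an interval from 237 to 52261. The order of these 3 genes cannot be read from such intervals, which overlap widely and cover counting error only. Zm00001eb370920, with 4 wild-type reads and 12.2 and 12.5 FPKM in the mutant, had a ratio of 323 (interval 126 to 1188).

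Log2(FPKM + 1) was compared between the genotypes with limma, a linear model that shares variance between genes. Of the 19082 genes that averaged 1 FPKM or more, 1227 were called higher in *zmnac128 zmnac130* (log2 fold change above 1 and adjusted p below 0.05), which is 6.43%. All 75 members passed the filter through their mutant values, and all 75 were called higher. This count follows from the rule, which used the same contrast, and nothing is read from it. The median log2 fold change was 2.89 over the members, with a range from 1.72 to 5.07, and 0.0068 over all genes tested. The pseudocount of 1 compresses these values. Raising it to 10 left 22 members called higher, with a median of 0.84. Keeping only genes that averaged 10 FPKM left 10 members to test.

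The names of few members are known. The deposited tables hold IDs only, and 4 of the 75 are described, since they belong to the 130 upregulated hdEGs. None of the 113 downregulated hdEGs is a member, which the direction of the rule fixes. The remaining 71 members carry no name here, and no role is given to them.

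The 1 member with a functional description was Zm00001eb093440, a carbohydrate transporter of the sugar porter type, LOC100192005 in RefSeq. Sugar porters move hexoses and related sugars across membranes. RefSeq places it at 152995480 to 152999988 on chromosome 2 (assembly Zm-B73-REFERENCE-NAM-5.0). The wild type gave 0.812 and 0.878 FPKM and the mutant 5.99 and 9.42 FPKM, a log2 fold change of 2.21 (standard error 0.21 from limma). Its mutant libraries were 1.57-fold apart. It was the only member among 18 genes matched as transporters by name, of which 10 were called higher and 8 lower. The transporter genes *ZmMATE11* and *ZmNRAMP5* pass the same limits but were left out by name, so the count of members omits them. These were matched among genes that the study had chosen for their change, so the counts are not independent evidence of a direction.

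Uncharacterized proteins make up the other 3. Zm00001eb049190 (LOC100272863, chromosome 1 from 252195255 to 252196821) had 0.549 and 0.318 FPKM in the wild type and 5.60 and 7.03 FPKM in the mutant. Zm00001eb062500 (LOC100282516, chromosome 1 from 300063053 to 300064765) had 0.681 and 0.624 FPKM against 7.39 and 10.7 FPKM. Zm00001eb166850, described as unknown, had 0.259 and 0 FPKM against 16.8 and 18.4 FPKM. It reached the highest level of the 4. Searches of the hdEG descriptions for words of transcription factors, cell wall enzymes, stress, hormones, proteases, lipids and starch found 0 members. Such word searches also match genes of other roles, and they cannot reach the 71 members without a description.

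The mutant libraries agreed closely for most members. Their values differed by a median of 1.19-fold, 71 of 75 members lay within 1.5-fold and 74 within 2-fold. Replicate 2 was the higher in 35 members and replicate 1 in the rest, so neither library was consistently the higher. By the rule both libraries had to reach 5 FPKM, which also limits how far apart low values could lie. Other genes were held to the same limits in the mutant (both libraries at 5 FPKM or more, mean below 50 FPKM). These 9707 genes differed by a median of 1.105-fold, and 96.2% of them lay within 1.5-fold against 94.7% of the members. The members were more weakly expressed and shorter, with a median of 8.61 FPKM against 13.7 FPKM. Among genes with fewer than 200 mutant reads per library, the median difference was 1.18-fold in 25 members and 1.16-fold in 463 other genes. With 200 to below 500 reads it was 1.15-fold in 33 members and 1.11-fold in 2137 others, and with 500 or more it was 1.21-fold in 17 members and 1.101-fold in 7107 others. Members therefore varied somewhat more between mutant libraries in each class, a difference given as a description since genes are not replicates. The 89 genes with the genotypes exchanged differed by a median of 1.12-fold between the wild-type libraries, where 10018 other genes under those limits differed by 1.08-fold.

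**Figure D2:**
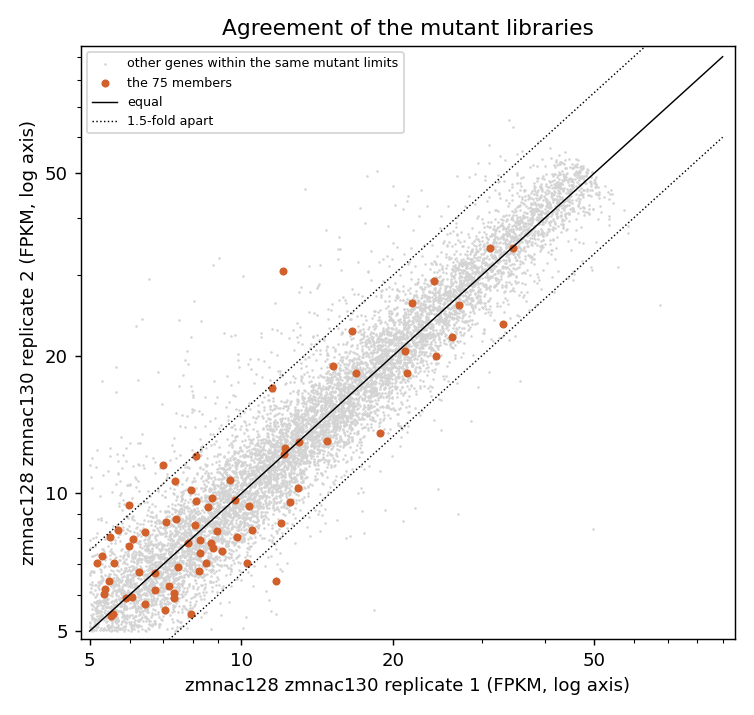
FPKM in replicate 1 (x axis) and replicate 2 (y axis) of *zmnac128 zmnac130*, both on log axes, for the 75 members (orange) and 9707 other genes under the same limits in the mutant (grey). The solid line marks equal values and the dotted lines a 1.5-fold difference, outside which 4 members lie.

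The 3 closest pairs of mutant values belonged to Zm00001eb035520, Zm00001eb021850 and Zm00001eb302690. Zm00001eb035520 had 9.69 and 9.67 FPKM in the mutant and 0.0528 and 0.0286 FPKM in the wild type. Zm00001eb021850 had 5.89 and 5.91 FPKM against 0.598 and 0.566 FPKM. Zm00001eb302690 had 12.2 FPKM in each mutant library against 0.430 and 0.581 FPKM. Each of these was equal to within 1% in the mutant.

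The 3 widest pairs were those of Zm00001eb427650, Zm00001eb406660 and Zm00001eb191610. Zm00001eb427650 was 2.53-fold higher in mutant replicate 2, the only member past 2-fold. Zm00001eb406660 had 11.7 and 6.42 FPKM in the mutant and 0.168 and 0.236 FPKM in the wild type, and was higher in replicate 1. Zm00001eb191610 had 6.998 and 11.5 FPKM against 0.910 and 0.676 FPKM. Even in these, the lower mutant value stood above the higher wild-type value, by the rule. Over all members the lower mutant value was a median of 29.6 times the higher wild-type value, and the smallest such gap was 5.56 times.

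The limits of the rule cut through a continuous range. Just inside the wild-type limit lay Zm00001eb144550 with 0.924 and 0.99994 FPKM in the wild type and 6.43 and 8.23 FPKM in the mutant. Zm00001eb264210 had 0.958 and 0.970 FPKM against 5.52 and 5.39 FPKM, and Zm00001eb191610 was the third. Just outside were Zm00001eb169450 (0.830 and 1.06 against 5.12 and 5.21 FPKM), Zm00001eb120080 (0.709 and 1.06 against 9.71 and 22.1 FPKM) and Zm00001eb018110 (0.0773 and 1.09 against 5.35 and 7.50 FPKM). The lowest mutant values inside were those of Zm00001eb331460, with 5.17 and 7.03 FPKM against 0.702 and 0.565 FPKM in the wild type. Zm00001eb217540 followed with 5.28 and 7.29 FPKM against 0.417 and 0.902 FPKM, and Zm00001eb330780 with 5.33 and 6.03 FPKM against 0.725 and 0.901 FPKM.

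Just below the mutant limit lay Zm00001eb313970, with 0 and 0.0392 FPKM in the wild type and 9.08 and 4.9994 FPKM in the mutant. Zm00001eb211640 had 0.773 and 0.232 FPKM against 4.90 and 15.1 FPKM, and Zm00001eb316770 had 0 and 0.151 FPKM against 7.07 and 4.89 FPKM. The 2 genes left out by name had values of the same kind. *ZmMATE11* had 0.287 and 0.565 FPKM against 39.8 and 48.7 FPKM, above every member, and *ZmNRAMP5* had 0.624 and 0.797 FPKM against 8.39 and 11.3 FPKM. The 46 members that meet no rule for naming had mutant means from 5.51 to 19.6 FPKM and ratios from 9.44 to 329.

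By ID number the members were spread over the whole genome. IDs of this annotation end in a number that rises along the chromosomes. This was checked on 175 genes with both an ID and a RefSeq placement. Leaving out 2 whose placement disagreed with both neighbours, the chromosome never went back as the ID number rose, and in 163 neighbouring pairs on 1 chromosome the start never fell. Members ran from number 3820 to number 428600, in tables that run from 10 to 443030. The median distance from a member to the next was 3665 ID numbers, and the longest stretch without a member was 24740. Of 45 stretches of 10000 ID numbers (about 1000 genes each), 33 held at least 1 member, and the largest number in a stretch was 5.

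**Figure D3:**
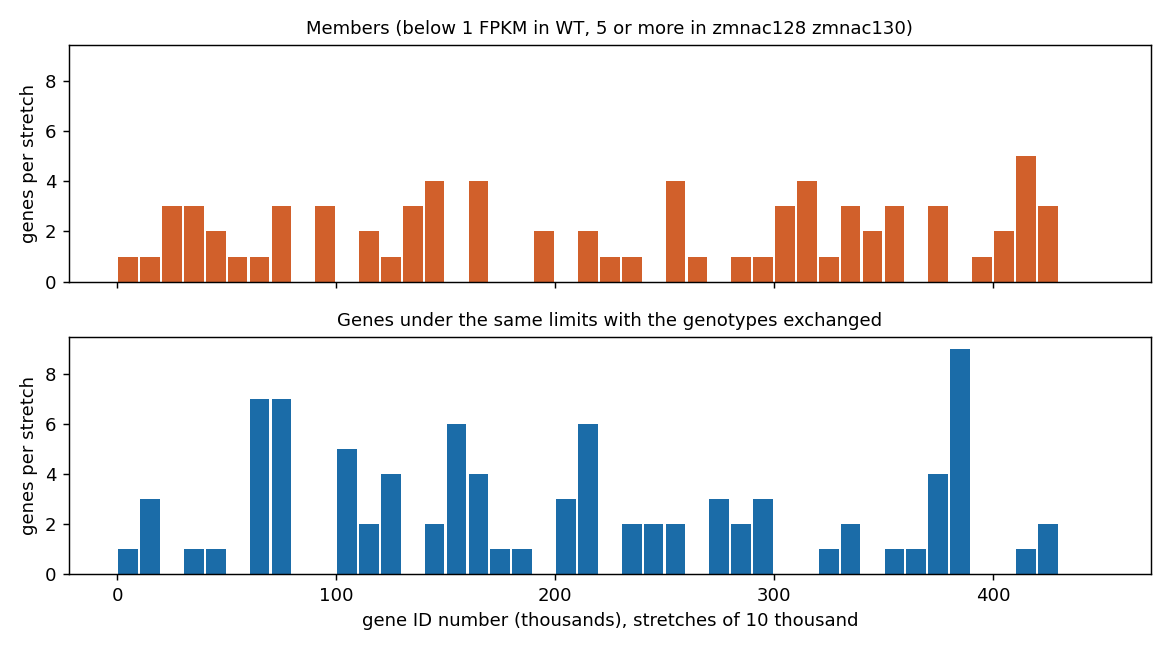
Number of genes per stretch of 10000 ID numbers along the annotation, for the 75 members (upper panel) and for the 89 genes that meet the same limits with the genotypes exchanged (lower panel). The members reach 5 in 1 stretch, from 410000 to 419999, and the exchanged set reaches 9 in the stretch from 380000 to 389999.

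Between placed genes on both sides, 61 members could be given a chromosome. Chromosome 10 held 8 members among 1660 genes so placed, 4.82 per 1000 genes. Its placed genes run only from ID number 405340 to 421930, while the tables run to 443030. Genes past 421930 were given no chromosome, among them the members Zm00001eb427650 and Zm00001eb428600. The stretch from 430000 to 439999 held 0 members. The values for chromosome 10 thus leave out the genes past 421930. The other chromosomes held from 0.828 to 2.25 per 1000 genes. Of the placed genes tested on chromosome 10, 10.7% were called higher, against 5.14% to 7.11% on the others and 6.43% over all genes. With the genotypes exchanged, chromosome 10 held 1 gene, and chromosome 9, with 2 members, held 12. These densities are counts over neighbouring genes of the same 4 libraries and carry no test. The part of parental alleles in them was not tested.

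The 8 members on chromosome 10 were spread between ID numbers 406610 and 420210. The highest mutant means there were those of Zm00001eb410280 and Zm00001eb417550, the latter with 0 and 0.136 FPKM in the wild type and 16.6 and 22.6 FPKM in the mutant. Zm00001eb420210 had 0.160 and 0.198 FPKM against 12.97 and 10.3 FPKM. Zm00001eb406610 and Zm00001eb406660 lay 5 genes apart, the first with 0.168 and 0.101 FPKM against 7.95 and 5.45 FPKM. Both were higher in mutant replicate 1 than in replicate 2. The genes between them were not members, and these chromosome 10 genes other than the 3 named by rule were chosen after their values were seen.

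Only 1 pair of members was adjacent. Zm00001eb316750 had 0 and 0.147 FPKM in the wild type and 8.75 and 9.78 FPKM in the mutant, and the next gene, Zm00001eb316760, had 0 and 0.541 FPKM against 6.09 and 7.95 FPKM. The gene after them is Zm00001eb316770, which missed the mutant limit by one library, and the gene before them, Zm00001eb316740, had 0.869 and 0.895 FPKM against 2.03 and 5.69 FPKM. Both of these outer genes were called higher, and the calls of the members between them follow from the rule. The run of 4 lies on chromosome 7 by ID number. Wild-type replicate 1 listed 3 of the 4 at 0, and replicate 2 listed none at 0. Of 74 distances between members next to each other in ID order, 13 were 500 ID numbers or less.

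Of the genes directly beside members, a larger share was called higher than of all genes. Of 148 such neighbours that were not members, 77 averaged 1 FPKM or more and were tested, and 16 of them (20.8%) were called higher against 6.43% of all genes. A gene near-silent in the wild type passes this filter only through its mutant values, so its call largely follows from the filter. Among the 16, Zm00001eb146470, Zm00001eb257550 and Zm00001eb414430 were at 0 in both wild-type libraries. Others, such as Zm00001eb168910, were expressed in both genotypes. The shares were not computed without near-silent genes. Another 4 (5.19%) were called lower, against 7.18% of all genes. Within 5 genes on either side, 35 of 330 tested neighbours (10.6%) were called higher. Other genes called higher also had such neighbours. Counted as pairs, the tested neighbour was also called higher in 18 of 79 pairs of a member (22.8%) and in 158 of 1215 pairs of the 1152 other genes called higher (13.0%). Of the 18 pairs, 2 are the adjacent members counted from each side, whose calls the rule fixes. These shares were compared by no test. The sources used here do not say whether counting used strand, so reads of overlapping neighbours cannot be told apart.

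**Figure D4:**
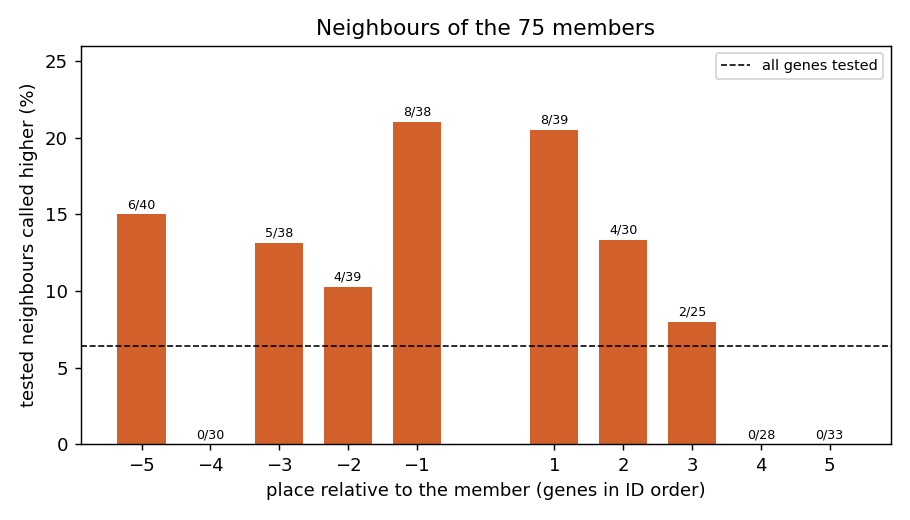
Share of tested neighbours called higher in *zmnac128 zmnac130* (y axis, percent) by their place before or after a member in ID order (x axis, genes), leaving out neighbours that are members. The numbers on the bars are called over tested genes, 8 of 38 directly before and 8 of 39 directly after, and the dashed line is the 6.43% of all genes tested. Genes near-silent in the wild type were tested only where their mutant values passed the filter.

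Neighbours with large changes lay in both directions. Zm00001eb350540, beside the member Zm00001eb350530, had 1.87 and 1.11 FPKM in the wild type and 39.8 and 37.0 FPKM in the mutant (limma log2 fold change 3.999 with a standard error of 0.17 and adjusted p = 5.32e-05). The member itself had 0.0510 and 0.110 FPKM against 9.51 and 10.7 FPKM. Zm00001eb146470, beside the member Zm00001eb146460, was listed at 0 in both wild-type libraries and had 13.1 and 11.6 FPKM in the mutant. Zm00001eb414430, beside the member Zm00001eb414420, was also listed at 0 in both and had 9.56 and 7.28 FPKM.

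Zm00001eb168910 was the most abundant of the called neighbours. Its wild-type values were 709 and 718 FPKM and its mutant values 2189 and 2265 FPKM, while the member before it, Zm00001eb168900, had 0.159 and 0 FPKM against 6.06 and 5.94 FPKM. The 4 genes called lower among the direct neighbours fell by 1.48 to 2.81 on the log2 scale. Zm00001eb166840, beside the described member Zm00001eb166850, had 6.53 and 5.53 FPKM in the wild type and was listed at 0 in both mutant libraries. Zm00001eb166390 had 10.1 and 9.13 FPKM against 1.42 and 1.60 FPKM, and Zm00001eb071390 had 8.26 and 7.98 FPKM against 1.62 and 1.17 FPKM. Zm00001eb146080 was the most abundant of the 4, with 105 and 83.8 FPKM against 28.7 and 38.0 FPKM. The neighbours given here were chosen after their values were seen.

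The distance from each of 18 transporter genes that the study names to the nearest member ran from 4 to 637 genes, and no background distance was computed. The 5 shortest distances were 4 to 13 genes. Zm00001eb304540 lies 7 genes before *ZmNRAMP5* and had 0.780 and 0.708 FPKM in the wild type and 8.28 and 7.89 FPKM in the mutant, close to the values of *ZmNRAMP5*. Zm00001eb048730 lies 13 genes before *ZmMATE11* and had 0.301 and 0.679 FPKM against 7.35 and 5.92 FPKM. Zm00001eb003820 lies 9 genes after *ZmTIP1;1*, a tonoplast aquaporin, and had 0.569 and 0.0616 FPKM against 12.5 and 9.57 FPKM. Zm00001eb191610 lies 4 genes before the phosphate transporter gene *ZmPHO1;2a*, which moved the other way, from 16.1 and 20.2 to 7.35 and 4.06 FPKM. Zm00001eb349960, one of the highest members, lies 12 genes after *ZmSIP1-2*, an aquaporin gene with 19.4 and 18.2 FPKM in the wild type and 57.5 and 49.9 FPKM in the mutant.

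The members were short genes. The length recovered from the FPKM steps had a median of 1165 bases in the 75 members and of 2016 bases in the 9707 other genes under the same limits in the mutant. Of the members 33 (44.0%) were shorter than 1000 bases, against 13.0% of those genes. Short lengths were not particular to the members. All 11649 genes near-silent in the wild type had a median of 1015 bases, and the 89 genes with the genotypes exchanged had 1149 bases. Each length is the smallest that gives whole reads in all 4 libraries, so a gene whose reads share a common factor can be longer than stated, and its reads more. This is likelier in genes with few reads, as in many of the 11649 near-silent genes, whose median may be too short.

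**Figure D5:**
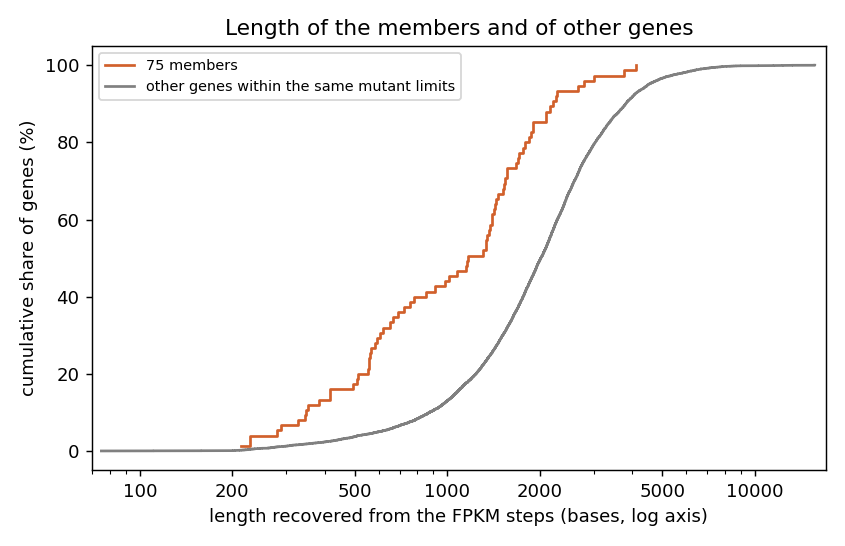
Cumulative share of genes (y axis, percent) by recovered length in bases (x axis, log scale), for the 75 members (orange) and 9707 other genes under the same limits in the mutant (grey). The members lie to the left, with medians of 1165 and 2016 bases.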

How the data were processed

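Gene-level FPKM was deposited by the authors for 44303 genes, in 2 tables that hold 6 samples. HISAT2 had placed the paired reads on B73 RefGen_v5. The program behind the FPKM was not given in the sources used here. Replicate 3 equals replicate 1 in both genotypes and was counted once.

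The members and gene lists were chosen with earlier results of these data known. Log2(FPKM + 1) values of genes averaging 1 FPKM or more were compared with limma 3.58.1 in R 4.3.3 (eBayes with trend, two-sided, Benjamini-Hochberg adjustment over 19082 genes, 2 residual and 4.04 prior degrees of freedom). The procedure was tested on simulated data. Depth, gene length and reads were recovered from FPKM steps (33589 genes, whole reads within 0.002). Read ratios carry exact Clopper-Pearson intervals. Chromosomes come from RefSeq placements of 175 of the 243 hdEGs through accessions.

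Genes were named where a description exists, for the 10 highest mutant means, the 5 largest ratios, the 3 widest and 3 closest mutant pairs, members within 50 ID numbers of another, and up to 3 genes on each side of each limit. Others are marked. The list of amino acid genes matched 0 IDs.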

Additional observations from a re-analysis of the deposited data

How the results depend on the processing

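The number of members followed the limits: 49 with a wild-type limit of 0.5 FPKM, 131 with a limit of 2 FPKM, 131 with a mutant minimum of 3 FPKM and 21 with a minimum of 10 FPKM. It was 101 with zeros in both wild-type libraries allowed and 75 (the same genes) with median-of-ratios scaling. With TPM, where values are larger and the limits therefore mean something else, it was 90, of which 55 were members. Leaving out 1 library gave 74 to 100 genes. Without wild-type replicate 1, 65 of 77 genes were members, and without wild-type replicate 2, 64 of 74 were. Without either mutant library all 75 members stayed.

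The number of all genes called higher was 305 with a pseudocount of 10 and 510 when only genes averaging 10 FPKM were kept, and 1227 as reported. It was 1034 to 1287 without 1 library. The members called higher were 22 and 10 under those settings, and 75 under each of the other settings and without any 1 library. The filter left only 10 members to test, and the larger pseudocount shrinks the fold changes of weak genes. The median log2 fold change of the members was 5.10 with a pseudocount of 0.1, 0.84 with a pseudocount of 10, 4.45 with the filter at 10 FPKM, 2.89 with median-of-ratios scaling, 3.46 with TPM, 5.73 with limma voom on recovered reads and 2.87 to 2.97 without 1 library. The labels do not say whether the replicate numbers pair the samples. The correlation of deviations was -0.0779 over 2 pairs, too few to settle it. With a replicate block 75 members and 1251 genes were called higher. The largest number of members in a stretch of ID numbers was 4 for stretches of 5000 and 7 for stretches of 20000. Without 1 library the count with the genotypes exchanged was 94 to 115, a check chosen after seeing the data. The depth limits the wild-type side, where 16 members rest on 1 to 3 reads.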
